A study of Rattus norvegicus with 8 samples.

Results

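The circadian clock of a cell is a feedback loop of transcription. BMAL1 pairs with CLOCK or with its close relative NPAS2, and the pair switches on genes that carry an E-box in their regulatory DNA, among them the Period and Cryptochrome repressors, the nuclear receptors REV-ERB alpha and beta, and a set of output factors. The REV-ERBs in turn hold down genes with a ROR response element (RORE), Bmal1 and Npas2 included, while DBP, TEF and HLF (the PAR bZIP factors) drive, and NFIL3 blocks, genes with a D-box. In the gut, local clocks of this kind are known for daily rhythms in absorption, motility and cell renewal.

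Described here are 10 genes of this loop: the activators Npas2, Clock and Bmal1, the REV-ERB genes Nr1d1 and Nr1d2, the D-box factors Dbp, Tef, Hlf and Nfil3, and Bhlhe40, an E-box repressor. They were measured in mucosa scraped from the distal colon of rats that had eaten, for 11 weeks, either the RM3 breeder chow (control, 4 arrays) or a diet with 10 g of quercetin, a plant flavonol, per kg (4 arrays). No label used here states the strain, sex or age of the rats or the hour at which they were killed, and that hour matters to any reading of clock transcripts, whose levels change through the day. Nothing in the labels says outright that each array is 1 rat, so the errors measure the spread between these samples, which may be technical. All 20 probe sets with 1 of the 10 symbols in the platform annotation were taken, out of 31042 probe sets that are no array controls, and the brightest of each gene stands for it. Of the 10 genes 8 had a brightest probe set in the upper 60% of signals, the part of the table that was tested, and 10 of the 20 probe sets lay there. The brightest probe sets of Dbp and Hlf did not. The lowest mean among the probe sets inside was that of Tef, a signal of 82.5, and the highest outside was a Clock probe set at 28.2. The 10 genes were chosen by their names and roles, but with the values of this same comparison (the difference in signal between the diets) in view, so those differences are a description. No exact p-value is given for a single gene of the 10. Where genes past a threshold are counted or named, the same counts over all probe sets are given too.

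RefSeq promoter windows (assembly GRCr8, 250 bases before to 50 bases after an annotated start) were found for 9 of the 10 genes, 11 windows in all. Those of 3 genes are printed, since their signals differed between the diets in opposite directions (Nr1d1, Nr1d2 and Npas2), and that of Bmal1 because it holds the element through which REV-ERBs act. Capitals mark an E-box (CACGTG), an E-prime box (CACGTT), a RORE or the core of one (AGGTCA), each searched on both strands.
Bmal1, chr1:176766078-176766377, plus strand: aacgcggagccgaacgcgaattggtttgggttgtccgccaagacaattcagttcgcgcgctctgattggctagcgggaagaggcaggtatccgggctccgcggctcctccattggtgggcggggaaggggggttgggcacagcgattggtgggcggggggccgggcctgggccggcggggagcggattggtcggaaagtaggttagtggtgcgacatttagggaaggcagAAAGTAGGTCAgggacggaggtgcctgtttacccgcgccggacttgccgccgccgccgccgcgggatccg
Npas2, chr9:48959315-48959614, plus strand: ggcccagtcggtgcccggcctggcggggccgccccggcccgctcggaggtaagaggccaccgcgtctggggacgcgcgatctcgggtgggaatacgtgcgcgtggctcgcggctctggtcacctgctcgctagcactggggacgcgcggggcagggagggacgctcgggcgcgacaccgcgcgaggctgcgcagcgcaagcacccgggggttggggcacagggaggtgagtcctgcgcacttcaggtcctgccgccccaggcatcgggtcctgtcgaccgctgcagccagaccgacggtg
Nr1d1, inner start, chr10:84229405-84229704, minus strand: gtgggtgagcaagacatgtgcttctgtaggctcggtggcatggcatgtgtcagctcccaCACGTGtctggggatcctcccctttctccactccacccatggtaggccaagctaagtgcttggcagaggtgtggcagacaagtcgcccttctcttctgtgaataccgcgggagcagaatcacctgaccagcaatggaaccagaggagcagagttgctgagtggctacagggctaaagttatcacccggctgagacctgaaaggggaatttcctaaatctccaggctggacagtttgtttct
Nr1d2, chr15:9954784-9955083, plus strand: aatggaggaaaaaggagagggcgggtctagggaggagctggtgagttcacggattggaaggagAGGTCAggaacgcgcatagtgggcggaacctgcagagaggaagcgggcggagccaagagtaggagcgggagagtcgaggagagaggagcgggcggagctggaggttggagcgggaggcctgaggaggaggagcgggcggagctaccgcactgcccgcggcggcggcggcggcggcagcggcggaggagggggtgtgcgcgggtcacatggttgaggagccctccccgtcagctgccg
In the Bmal1 window the capitals are a full RORE, 10 to 20 bases before the start (AAAGTAGGTCA), an element found in 0.356% of all 33469 windows, and in no window of the other 8 genes. Its last 6 bases are the core, which occurs in 16.2% of all windows and, besides Bmal1, in the Nr1d2 window, where it is the stretch in capitals. The E-box stands in the inner window of Nr1d1, 186 to 191 bases before that start. The E-box also occurs once each in the windows of Tef and Bhlhe40, which makes 3 of the 11 windows, against 6.42% of all windows. The outer window of Nr1d1, not printed, holds an E-prime box (4.83% of all windows). The Npas2 window holds none of these letters, and a D-box (TTANGTAA, 2.24% of all windows) was found in none of the 11. These matches describe the letters in short windows, with no readout of binding in these samples.

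Npas2, which stands in for CLOCK as the partner of BMAL1, had a lower signal after quercetin. The 4 control arrays read 1018, 1052, 942 and 1358, and the 4 quercetin arrays 719, 591, 795 and 685. The highest quercetin array (795) stayed below the lowest control array (942). On the scale used for all differences, log2(signal + 16), quercetin minus control was -0.63 (SE 0.150), or 0.646 times control in signal + 16. In a tissue sample, fewer cells that express a gene and less RNA per cell cannot be told apart. The array labelled control 4 held the highest signal and quercetin 2 the lowest. In each fit that left out 1 array the difference kept its sign, from -0.70 to -0.52. Its within-group SD, 0.202 on the log2 scale, was at percentile 41.7 among tested probe sets of like brightness, so Npas2 was about as even within a diet as other transcripts of its level.

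Clock and Bmal1, the other activators, lay close together in the 2 diets. The brightest Clock probe set read 581, 491, 541 and 496 on the control arrays and 572, 594, 617 and 654 on the quercetin arrays. The groups overlapped only through control array 1 (581) and quercetin array 1 (572). The difference was 0.20 (SE 0.128). A second Clock probe set that was tested gave -0.02 (SE 0.141), with 242 to 275 in control and 241 to 263 in quercetin, and so did not show the shift of the first. The other 2 Clock probe sets were too dim to read. Clock was steady within each diet: its within-group SD of 0.0964 was at percentile 3.71 among probe sets of like brightness.

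Bmal1 read 442, 191, 230 and 358 on the control arrays and 261, 316, 314 and 312 on the quercetin arrays. All 4 quercetin arrays lay inside the control range, and the difference was 0.05 (SE 0.228). The control arrays were the more scattered: control array 1 was the highest of all 8 and control array 2 the lowest. Without control array 1 the difference was 0.24, without control array 2 -0.14 and without control array 3 -0.05, so no direction can be given for Bmal1. The 95% interval of the difference ran from -0.44 to 0.54.

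**Figure D1:**
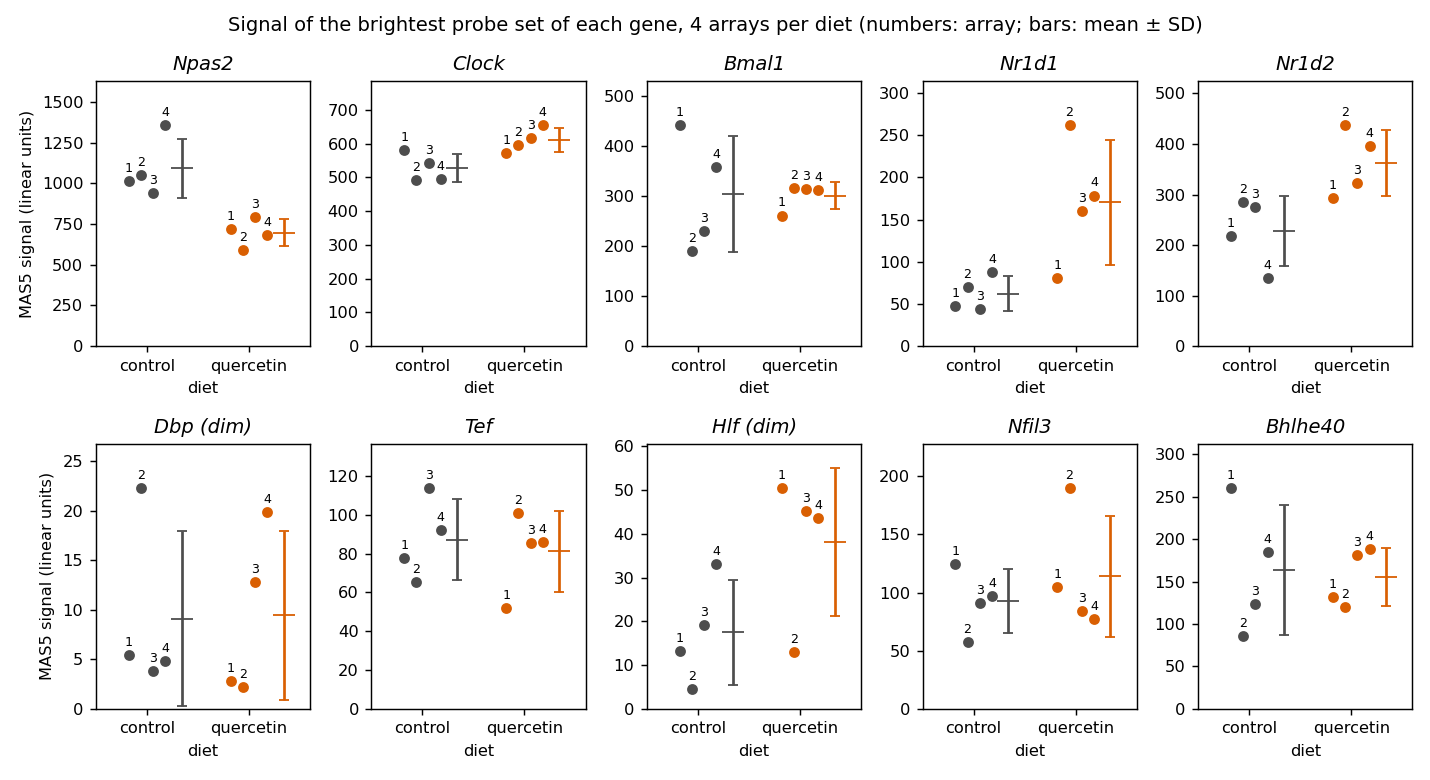
MAS5 signal (linear units, axes from 0) of the brightest probe set of each of the 10 genes, by diet; points are single arrays with their number, and the bar at the side of each group is the mean ± SD of 4 arrays. The diets do not overlap for Npas2 (942 to 1358 in control, 591 to 795 in quercetin) and Nr1d2 (135 to 285 and 293 to 437), while Dbp and Hlf stay at the low signals of the untested part of the table.

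The 2 REV-ERB genes had higher signals after quercetin. For Nr1d1, which encodes REV-ERB alpha, the control arrays read 47.1, 69.9, 43.4 and 87.9, and the quercetin arrays 80.3, 262, 160 and 178. The groups overlapped by 1 array on each side, control 4 (87.9) and quercetin 1 (80.3). The difference was 1.19 (SE 0.305), or 2.29 times control in signal + 16. This difference was the largest among the 8 tested genes of this group in either direction. It was 0.97 without quercetin array 2, the highest array, 1.48 without quercetin array 1 and 1.34 without control array 4. Leaving out either of the last 2 arrays ends the overlap by construction, since it ran through these 2 arrays alone. Of all tested probe sets 9.95% did not overlap without quercetin array 1 and 9.55% without control array 4, against 6.39% with all arrays. Within a diet Nr1d1 was uneven, with an SD of 0.523, at percentile 85.5 for its brightness.

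In RefSeq the Nr1d1 gene (chr10:84224599-84231812, minus strand, GRCr8) shares 1061 bases at its far end with Thra (chr10:84198141-84225659, plus strand), the gene of a thyroid hormone receptor. Probe sequences were not used here, so which strand and segment each probe set reads was not tested. The 2 tested Thra probe sets, looked up because of this overlap and outside the rule for naming genes, had differences of -0.22 (SE 0.211) and 0.30 (SE 0.227), with both diets overlapping. Neither was as large as that of the Nr1d1 probe set.

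For Nr1d2, which encodes REV-ERB beta, the brightest probe set read 217, 285, 276 and 135 on the control arrays and 293, 437, 323 and 396 on the quercetin arrays. The lowest quercetin array (293) lay just above the highest control array (285). The difference was 0.66 (SE 0.223), and 0.45 without control array 4, which had the lowest signal. The second tested Nr1d2 probe set was dimmer and read 121, 107, 63.9 and 63.7 in control against 116, 108, 94.5 and 158 in quercetin. Its groups overlapped and its difference was 0.39 (SE 0.241). The third lay far below the tested level and no order could be read from it. Averaged over the 3 probe sets the difference was 0.35.

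The REV-ERB genes and Npas2 were also set side by side on each array. Among the quercetin arrays, number 2 had the highest signal of both Nr1d1 (262) and Nr1d2 (437) and the lowest of Npas2 (591). Quercetin array 1 had the lowest of both REV-ERB genes in that diet (80.3 and 293). In the control group the 2 REV-ERB genes did not run together: control array 4 had the highest Nr1d1 (87.9), the lowest Nr1d2 (135) and the highest Npas2 (1358). With 4 arrays per diet these orders are given as values only.

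**Figure D2:**
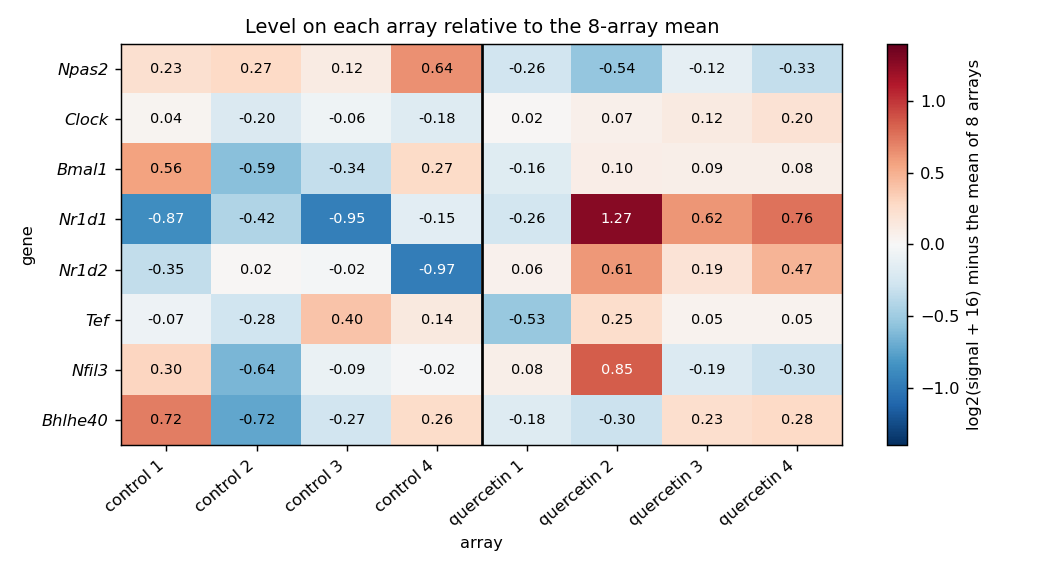
Level of the 8 tested genes (rows) on each of the 8 arrays (columns), as log2(signal + 16) minus the gene's mean over all arrays; red is above and blue below that mean, and the black line parts the diets. Nr1d1 and Nr1d2 are reddest on quercetin array 2, where Npas2 is bluest. Nr1d1 is blue on all 4 control arrays and also on quercetin array 1. The column of control array 2 is blue for Clock, Bmal1, Nr1d1, Tef, Nfil3 and Bhlhe40.

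Of the output factors, Dbp and Hlf gave little signal. Dbp, the founding PAR bZIP factor and one of the most strongly cycling transcripts of many tissues, read 3.84 to 22.3 in control and 2.20 to 19.9 in quercetin, far below the lowest mean signal tested (29.4). Its difference of 0.02 (SE 0.297) has no meaning at that level, and what these arrays show of Dbp is only that its 1 probe set was dim on all 8. Hlf, the leukaemia-linked relative, had 4 probe sets, all of them dim, with means of 7.48 to 24.5. The brightest read 13.2, 4.41, 19.1 and 33.2 in control and 50.5, 13.0, 45.3 and 43.6 in quercetin, a difference of 0.69 (SE 0.372). The next 2 gave 0.66 and 0.60 and the dimmest -0.18, with overlapping groups in all 4. MAS5 signals this low scatter widely, so no order between the diets is read from them.

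Tef was the only PAR bZIP gene with a tested probe set. It read 77.5, 65.3, 114 and 92.3 in control and 52.0, 101, 85.7 and 86.0 in quercetin. The groups overlapped over most of their range, and the difference was -0.09 (SE 0.238). Its 2 other probe sets were below the tested level. Nfil3, the repressor that binds the same D-box, read 124, 57.5, 91.4 and 96.9 in control and 105, 190, 84.3 and 77.1 in quercetin. The difference of 0.22 (SE 0.280) rested on quercetin array 2, the same array that was highest for both REV-ERB genes, and was -0.02 without it.

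Bhlhe40, which competes for E-boxes and restrains the activators, read 261, 85.9, 123 and 185 in control and 132, 120, 181 and 188 in quercetin. All quercetin arrays lay within the control range and the difference was 0.01 (SE 0.281). Its within-group SD of 0.489 was at percentile 88.8 for its brightness, the highest of the 8 genes. As for Bmal1, control array 1 was the highest and control array 2 the lowest. Leaving out the first gave 0.25 and leaving out the second -0.23.

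Control array 2 touches several of these values. It had the lowest signal of all 8 arrays for 4 of the 8 tested genes, Clock, Bmal1, Nfil3 and Bhlhe40, where over all tested probe sets it was the lowest in 19.5%. Its GAPDH 3' to 5' signal ratio, which goes up when RNA is shortened or copied incompletely, was 3.79, against 1.58 to 2.36 on the other arrays. The same ratio for beta-actin was 8.65, 21.4, 10.2 and 12.4 on the control arrays. On the quercetin arrays it was 7.18, 8.90, 9.12 and 6.79. By beta-actin the ratio was thus mostly higher in control, and not on control array 2 alone. With the GAPDH ratio as a covariate the difference was -0.63 for Npas2, 1.24 for Nr1d1 and 0.70 for Nr1d2. In that fit 4 of 8 genes were higher in quercetin, with Bmal1 at -0.03 and Bhlhe40 at -0.09. The beta-actin ratio entered no fit, and beyond this the part of RNA quality in these values was not tested. Without control array 2 the difference was -0.64 for Npas2, 1.25 for Nr1d1 and 0.78 for Nr1d2, each at least as large as with it. Of the 8 genes 4 were then higher in quercetin in place of 6. Without control arrays 1 and 2, the 2 arrays least like the rest, the 3 values were -0.69, 1.15 and 0.83.

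**Figure D3:**
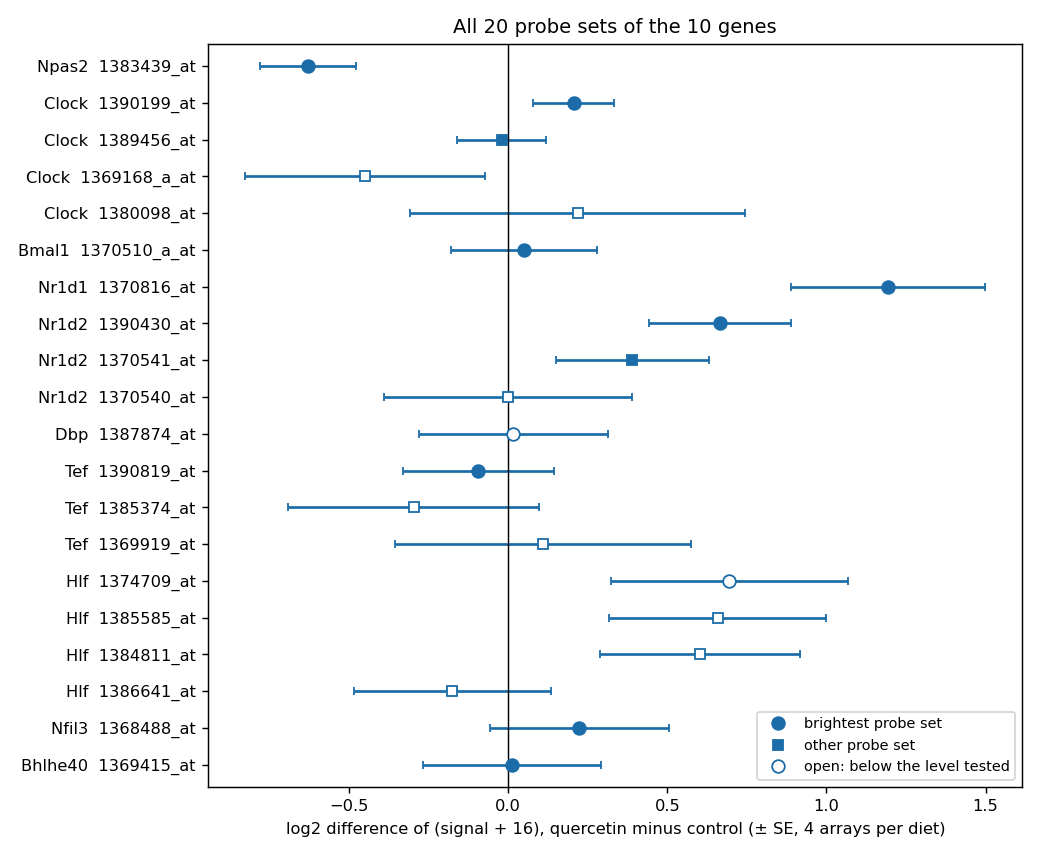
Difference between the diets (log2 of signal + 16, quercetin minus control, ± SE, 4 arrays per diet) for all 20 probe sets of the 10 genes; large circles are the brightest probe set of a gene, squares the others, and open symbols lie below the tested level. Npas2 (-0.63) is to the left and Nr1d1 (1.19) and Nr1d2 (0.66, with 0.39 on its second tested probe set) to the right. The brightest probe sets of Clock, Bmal1, Tef, Nfil3 and Bhlhe40 lie between -0.09 and 0.22. Among the open symbols Clock reaches -0.45 and Tef -0.30, and those of Hlf lie at 0.69, 0.66, 0.60 and -0.18.

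Counted over the 8 tested genes, 6 had a higher and 2 a lower mean in quercetin, with a median difference of 0.13, against 0.01 over all 18625 probe sets tested. In the limma fit over all of these 0 of the 8 passed an adjusted p of 0.05, where 0.0107% of all probe sets did, and 3 (Npas2, Nr1d1 and Nr1d2) had an unadjusted p under 0.05, where 10.8% did. The diets did not overlap for 2 of the 8, where 6.39% of all probe sets did not: Npas2 lower (3.3% of all probe sets) and Nr1d2 higher (3.09%). By the brightest probe set of each of 10266 named genes tested, the median difference was 0.04, with 5741 higher and 4525 lower. Of these genes 5.84% did not overlap, 213 of them lower and 387 higher in quercetin. The genes were grouped with this comparison known, so nothing is read from these counts.

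The remaining genes of the clock were taken from 5 lists. By the brightest probe set of each of 10266 named genes tested, 4525 were lower and 5741 higher in quercetin. In limma 0.0107% of all 18625 probe sets tested passed the adjusted threshold, and 10.8% had an unadjusted p under 0.05. Among 10 tested clock repressors and their regulators, 9 were lower and 1 higher, with a median of -0.38, and 1 passed the adjusted threshold. That gene was Per2, a core repressor, which fell by 1.53 (limma adjusted p = 0.00269, all 4 quercetin arrays below all 4 control arrays). It was the only gene of the 5 lists to pass, and without control arrays 1 and 2 it missed the threshold (-1.52, limma adjusted p = 0.0750), while the median of the 10 genes was -0.25. The other Period and Cryptochrome genes had values of -0.89 (Per1), -0.97 (Per3, SE 0.439), -0.82 (Cry1, SE 0.162) and -0.47 (Cry2, SE 0.210). Of these genes only Cry1 had diets that did not overlap. Per1 read 20.8 to 182 in control and 17.8 to 92.0 in quercetin, with a 95% interval from -1.97 to 0.19. For Per3 quercetin array 1 read 3.63 and the other quercetin arrays 62.0 to 97.5, against 74.8 to 130 in control. The kinase gene Csnk1d and the ubiquitin ligase gene Fbxw11 had -0.09 and 0.00. Bhlhe41, the relative of Bhlhe40, was dim. No probe set was named Ciart.

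Among the nuclear receptor partners, the activators that compete with REV-ERBs for the RORE were represented by Rora and Rorb, which were dim on all their probe sets. Of the corepressor genes through which REV-ERBs silence their targets, 5 were tested and 0 passed (1 had an unadjusted p under 0.05 in limma), with values from -0.05 to 0.32. Ncor1, the main corepressor, had 0.05 (SE 0.124), and Tbl1xr1, a subunit of its complex, 0.32, though another Tbl1xr1 probe set gave -0.91.

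The lists of described target genes give the downstream side. Of REV-ERB targets outside the 10 genes 2 were tested, Cry1 (-0.82) and Insig2, a regulator of sterol synthesis (0.14, with -0.49 on another probe set); Fgf21 and Elovl3 were dim. Of PAR bZIP targets 5 were tested, 4 higher and 1 lower, with a median of 0.27, and 0 passed limma (1, Ces2c, had an unadjusted p under 0.05). The brightest of them were Alas1, the first enzyme of heme synthesis (-0.08), and Slc6a6, the taurine transporter (0.27). Of the listed E-box outputs, none of them among the 10 genes described here, all 8 tested were lower, with a median of -0.49. Of these 1 passed the threshold (Per2). In limma 4 had an unadjusted p under 0.05 (Per2, Cry1, Cry2 and Nampt), against 10.8% of all probe sets. All 8 stayed lower with quantile normalisation, with median centring and without control arrays 1 and 2 (median -0.51). The 4 Period and Cryptochrome genes of this list were also counted among the repressors. The list further held Nampt, which makes NAD (-0.45, SE 0.185), and Noct, a clock-driven phosphatase gene (-0.39, SE 0.203). Wee1, a brake on mitosis, had -0.46 (SE 0.238) and Usp2, a deubiquitinase, -0.51 (SE 0.234). The 95% intervals of Per1, Noct, Wee1 and Usp2 reached above 0, that of Usp2 barely. Among the 10 genes described here, those with an E-box in a promoter window had values of 1.19 (Nr1d1), -0.09 (Tef) and 0.01 (Bhlhe40). Nr1d2, also named above as switched on by the activators, has no E-box in its window and had 0.66. The listed outputs and the genes described here were not tested against each other.

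**Figure D4:**
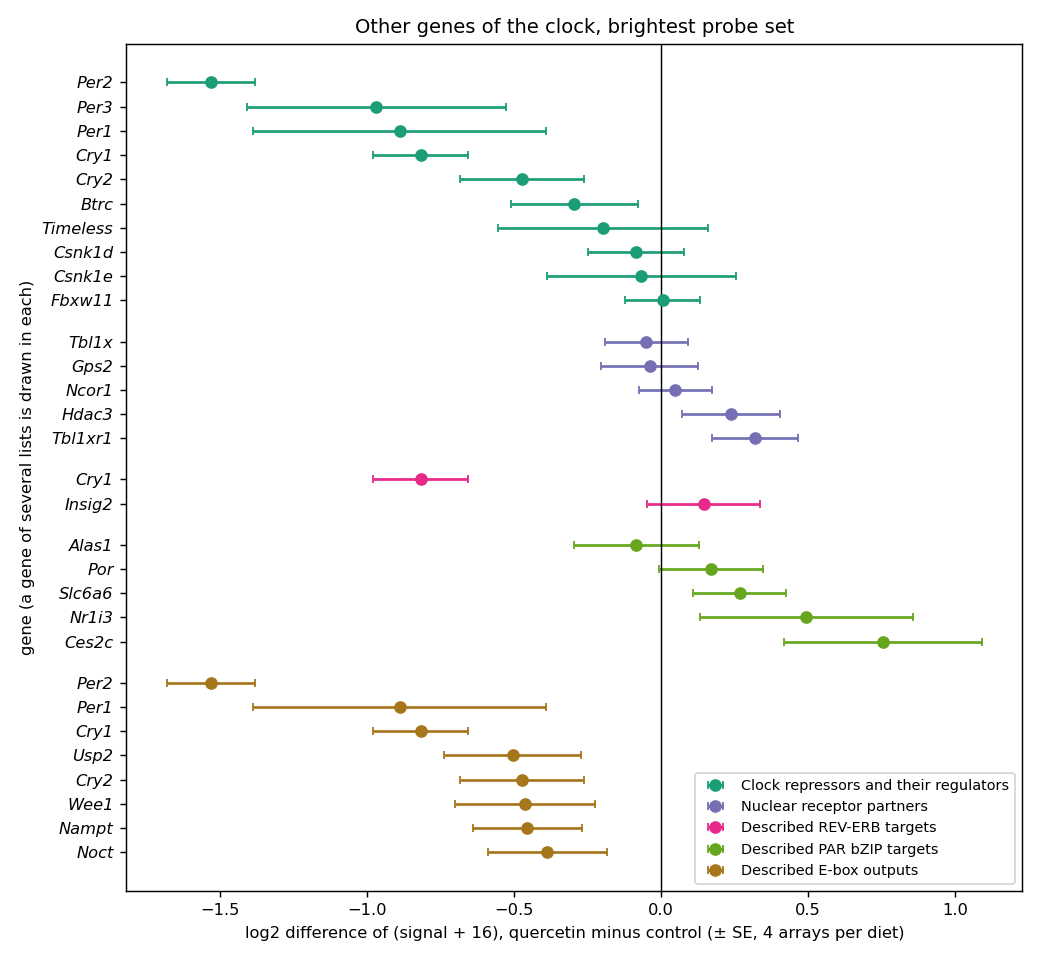
Difference between the diets (log2 of signal + 16, quercetin minus control, ± SE, 4 arrays per diet) for the tested genes of the 5 lists, 1 colour per list; a gene in several lists is drawn in each. Per2 lies farthest left (-1.53), and all 8 E-box outputs of the list lie left of 0 with a median of -0.49. The nuclear receptor partners cluster between -0.05 and 0.32.

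The genes whose pattern over the 8 arrays was most like that of Nr1d1, among 10265 others, were Mettl26 (Pearson r = 0.967), Otub2 (0.967) and Mcu, the calcium channel of mitochondria (0.956). Mettl26 read 286 to 394 in control and 386, 713, 547 and 544 in quercetin, so quercetin array 1 was the lowest and array 2 the highest, as for Nr1d1. Those most like Npas2 were Gpr108 (0.966), Lysmd3 (0.920) and Creb3l2, a transcription factor of the secretory pathway (0.917). Gpr108 read 877 to 1081 in control and 586 to 712 in quercetin. These correlations take the best of many genes over 8 arrays that share 1 scaling method, and are given as descriptions.

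Markers of epithelial cells were present in the scrapings. All 9 colonocyte markers and all 5 goblet cell markers were in the tested part, from Epcam (14685 to 21395) and Muc2 (19258 to 39228) down to Spink4 (253 to 4174). The summed goblet cell signal was 43998 to 51339 in control and 39411 to 50772 in quercetin. Spink4 was the marker of these 5 with the largest difference: it read 253 to 1133 in control and 815 to 4174 in quercetin, a difference of 1.37 (SE 0.477), and its part in the clock gene values was not tested. Of 6 smooth muscle markers 3 were in the tested part (Myh11 113 to 185, Acta2 78.1 to 235, Des 20.3 to 76.8) and 3 were dim, among them Tagln (2.44 to 9.90). Their summed signal was 289 to 482 in control and 292 to 382 in quercetin. Of 4 fibroblast markers 2 were in the tested part (Col1a1 and Col3a1), and their sum over all 4 was 41.1 to 156 and 51.7 to 121. The summed signal of 4 neuron and glia markers, whose cells carry their own clocks, was 78.6 to 162 and 43.5 to 111. The leukocyte sum was 323 to 461 in control and 456 to 827 in quercetin, most of it Cd74, with Cd3e, Cd79b and Cd68 dim. Its members did not move together: Cd74 had a difference of 0.64 (SE 0.193) and Ptprc 0.19 (SE 0.331). Of the dim ones Cd79b had 0.45, Cd68 -0.41 and Cd3e -0.78. The sum was higher on average in quercetin, as were the REV-ERB genes, and its part in their difference was not tested.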

How the data were processed

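The sample titles gave groups and replicate numbers. Deposited values are linear intensities, 1 per probe set and array, computed by the authors with MAS5 per the submitters' processing notes; the 2% trimmed mean signal was 200.1 on each array. Scanner settings and other steps: not given in the sources used here. After removal of 57 array controls, signals were taken as log2(signal + 16), which understates changes of dim probe sets. The upper 60% by mean over all arrays (18625, mean log2 of at least 5.50) entered limma 3.58.1 in R 4.3.3 (lmFit, eBayes with trend, two-sided, Benjamini-Hochberg, threshold 0.05). Dim probe sets take differences and SEs from a fit without that filter. Precision is limited by the number of arrays: a typical (median) SE was 0.222. Symbols came from the platform annotation, and the Entrez identifiers of 20 of 20 probe sets of the 10 genes carry the same symbol in RefSeq (GRCr8), whose promoter windows were used. Proteins were not analysed here.

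The genes, lists and tests were chosen with earlier results of these data known. All 10 genes are named with every probe set; from the lists, the Period and Cryptochrome genes, Rora, Rorb, Ciart, Bhlhe41, any gene past the threshold, and the 2 brightest others of each list. Elovl3, Ces2c, Wee1 and Usp2 were named after their values were seen. Steps were tested on simulated data. Spink4 and the other cell markers named singly were also named with their values known. Alternatives tried: other pseudocounts (1 and 64); quantile or median scaling; all probe sets or the upper 40%; a block for the replicate number; weighted arrays; eBayes with no trend; a gene's probe sets averaged; each array left out; control arrays 1 and 2 left out; the GAPDH ratio as a covariate.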

Additional observations from a re-analysis of the deposited data

Results flagged for a closer look

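Among 28 genes (the 10 described and those named from the lists by rule; 56 groups of 4 arrays) in 3 groups a single array stood off, and about 2.8 are expected by chance. In brackets stand the signals and, last, how much of the group's range (log2 scale) the gap to its neighbour makes up. Bmal1 was low on quercetin array 1 (261, against 312 to 316; 0.928). Dbp was high on control array 2 (22.3, against 3.84 to 5.46; 0.881), and Hlf was low on quercetin array 2 (13.0, against 43.6 to 50.5; 0.868); both of these lie below the tested level.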

How the results depend on the processing

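None of the 8 tested genes passed the adjusted threshold in any alternative, and Dbp and Hlf lay outside the tested part. Npas2 kept its sign in all 20 alternatives (-0.70 to -0.52), as did Nr1d1 (0.85 to 1.48) and Nr1d2 (0.35 to 0.83), and Hlf in its 19 (0.31 to 1.21). The sign turned for Clock in 1 of 20 (-0.01 with the mean of its probe sets), Nfil3 in 1, Tef in 2, Bmal1 in 3, Bhlhe40 in 6 and Dbp in 6 of 19. The median over the tested genes ran from -0.05 (without control array 2) to 0.25 (without control array 1), within its spread between arrays. The 2 probe sets that passed over the whole table became 3 with a pseudocount of 64, 1 with quantile normalisation, median centring, no filter and no trend, 0 without control arrays 1 and 2, and 1 to 2 with single arrays left out. Per2, the 1 passing gene of the 5 lists, did not pass without control arrays 1 and 2 or with the mean of its probe sets (0 genes in both; its adjusted p ran from 0.000873 to 0.424 over all alternatives); fewer arrays and a second, dim probe set enter by construction. Correlations of same-numbered arrays' deviations were -0.15 to 0.16, which showed no clear pairing by number and cannot exclude one. The arrays numbered 2 were each other's best match in the other diet (0.16). With the replicate block 1 probe set and 1 gene of the lists passed, and the block changed no call of a gene named here. Dim signals limit Dbp, Hlf, Rora and Rorb.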
